A study of Cynoglossus semilaevis with 6 samples.

Results

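The transcripts described here are the most abundant ones in the liver of the half-smooth tongue sole (Cynoglossus semilaevis), a flatfish that tolerates a wide range of salinities. Members were chosen first by their measured level: the mean RPKM over the 6 libraries (reads per kilobase of feature, scaled to the counted reads of the library) was at least 500. Of 34751 deposited features, 206 reached this level. Features with a non-coding RefSeq identifier (3), features on the W or Z chromosome (10) and the genes lect2.1 and hpx (2) were left out, which gave 191 members. The levels below are therefore a description and were not tested.

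All fish were females, reared for 10 months at a salinity of 30 ppt. The LS_L group was then brought to 15 ppt and the HS_L group was kept at 30 ppt, the normal salinity that served as the control, and livers were taken at the end of a 60-day experiment. Each group had 3 libraries. For each library the livers of 3 fish of the same tank were pooled, so that the replicate was the tank and the spread between single fish could not be seen.

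In teleost fish, as in other vertebrates, the hepatocyte secretes most proteins of the blood plasma, among them apolipoproteins that carry lipids, clotting factors, complement proteins and carriers of metal, heme and vitamins. This output rests on the translation machinery, whose ribosomal proteins are encoded by some of the shortest and most abundant messenger RNAs of the cell. The tissue label was checked against the hepatocyte markers: 17 of them were tested, and 13 were members. The tested markers of exocrine pancreas (4), skeletal muscle (5), ovary and egg (6), and endothelium, stroma and bile duct (8) held 0 members. Of 2 red blood cell markers 1 was a member (hbae5), and of 5 immune cell markers 2 were members (cd74a and lyz). Markers were matched by gene symbol, so genes with only a LOC number were not counted.

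Between 16176689 and 19428741 reads were recovered per library from the RPKM values, and size factors ran from 0.868 to 1.20. Every member had at least 169 reads in each library, with a median of 21989, so that counting error was small beside the spread between libraries. Of all features, 9343 had a mean RPKM of at least 1 and were tested. Some libraries stood apart in other cell type markers. The summed immune cell markers were at 3646, 720 and 903 in LS_L_1 to LS_L_3 and 1145, 424 and 857 in HS_L_1 to HS_L_3 (scaled RPKM, that is, RPKM rescaled by the size factors). Of the sum in LS_L_1, 3601 came from the members lyz and cd74a. The summed exocrine pancreas markers were at 21.6, 105 and 115 in LS_L_1 to LS_L_3 and 734, 3645 and 75.8 in HS_L_1 to HS_L_3.

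The 191 members spanned a 110-fold range of mean RPKM, with a median of 1394. There were 12 members with a mean over 10000 RPKM, 116 between 1000 and 10000 and 63 under 1000. RefSeq accessions or positions gave a gene symbol to 130 members and only a LOC number to 52, while 9 were not matched. Role lists held 111 members, among them 66 ribosomal proteins, and 19 further members had a symbol but were in no list. Lists were matched by gene symbol, so the 52 members with a LOC number and the 9 not matched were in none. Of 97 nuclear-encoded genes tested for mitochondrial respiration, a list that includes mitochondrial carriers, 0 were members. The same held for 10 cytoskeleton and 13 nuclear and histone genes tested.

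**Figure D1:**
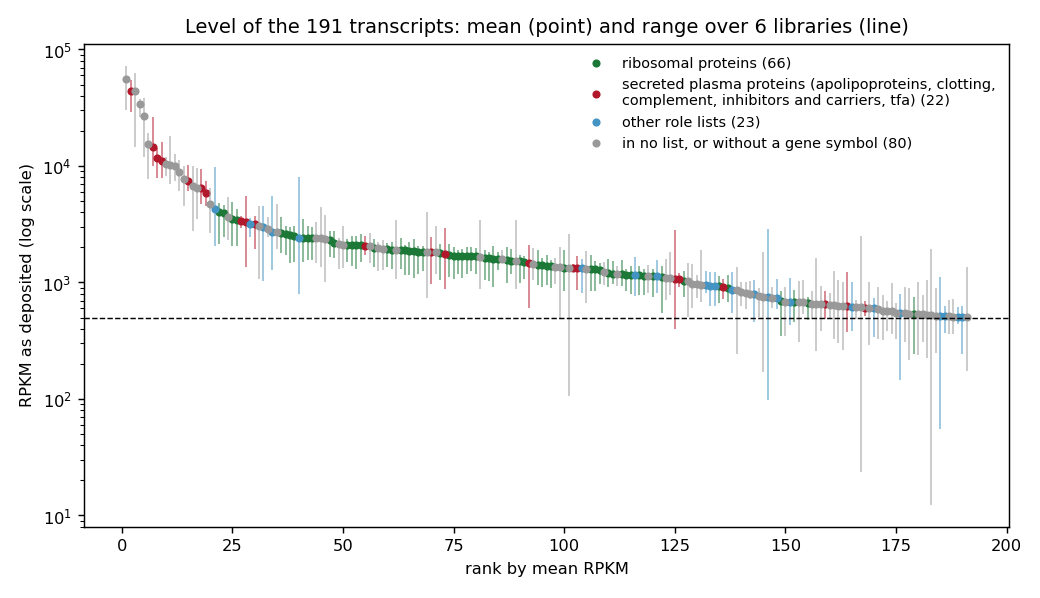
Deposited RPKM (log axis) of the 191 members against their rank, with the mean over 6 libraries as a point and the lowest and highest library as a line. The dashed line is the level of 500, and the members run from 55705 to 506 on average. Ribosomal proteins (66) lie in the lower part of the range, between 535 and 4066, 22 members of the plasma protein lists with tfa lie across the whole range, 23 members are in other lists and 80 in none.

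The highest member lay at chromosome 13, 13678769 to 13679711, where RefSeq places the protein-coding LOC112487977. Its deposited RPKM was 72233, 60053 and 67214 in LS_L_1 to LS_L_3 and 59002, 30360.3 and 45366 in HS_L_1 to HS_L_3, and it ranked first among the members in every LS_L library and second in every HS_L library. The second was apoa1b (chromosome 4, 14695054 to 14696838), the main protein of high-density lipoprotein. Its RPKM was 29246, 45788 and 45201 in LS_L_1 to LS_L_3 and 39319, 51491 and 54561 in HS_L_1 to HS_L_3. It ranked between 1 and 4 in every library, and it was first in HS_L_2 and HS_L_3. The third, at chromosome 8, 1547380 to 1548120, carries a coding identifier in the deposited table, but RefSeq lists the locus (LOC112487281) as lncRNA, and it overlaps a non-coding feature. Its RPKM was 59290.1, 51474 and 63017 in LS_L_1 to LS_L_3 and 59262, 17752 and 14643 in HS_L_1 to HS_L_3. It was at rank 1 or 2 in the LS_L libraries and in HS_L_1, and at rank 5 in HS_L_2 and HS_L_3. LOC103383958 and LOC103394268 followed with means of 34299 and 26663 RPKM.

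Among the next members by mean RPKM were tfa, which encodes the iron carrier transferrin (14562), hpxb, a hemopexin that binds heme (11801), and ambp, the precursor of alpha-1-microglobulin and bikunin (11038). The genes of the fibrinogen chains, fgg, fgb and fga, stood at 7449, 6449.7 and 5870.4. The other places down to rank 20 were taken by LOC103393827 (15384), LOC103376894 (10219.6), LOC103390021 (10001), LOC103383167 (8815), LOC103383756 (7749), LOC103386925 (6763), LOC103380731 (6475) and LOC103393908 (4695), and by XM_008324267.1 (10308), which has no symbol. The members with only a LOC number or no symbol are given no role here, apart from LOC103379545, which the study describes.

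The members took most of the output of each library. Their share of the summed RPKM was 57.5%, 61.9% and 64.7% in LS_L_1 to LS_L_3 and 64.7%, 68.9% and 65.4% in HS_L_1 to HS_L_3. The LS_L libraries were at or under the lowest HS_L library, which LS_L_3 matched to the decimal shown. The mean was 61.4% ± 3.61 (SD, n = 3) in LS_L and 66.3% ± 2.23 (SD, n = 3) in HS_L. This order depended on features that are no members. lect2.1 held 23.9%, 22.3% and 20.4% in LS_L_1 to LS_L_3 and 15.6%, 5.2% and 17.4% in HS_L_1 to HS_L_3, and hpx held 4.26% in HS_L_2 and 0.0162% to 0.563% in the others. With lect2.1 alone taken out of the total, the difference LS_L minus HS_L moved from -4.97 to 2.67 percentage points, and with hpx alone to -6.15, both chosen after seeing the data. With lect2.1 and hpx taken out of the total, the members held 75.7%, 79.6% and 81.3% in LS_L_1 to LS_L_3 and 77.1%, 76.1% and 79.5% in HS_L_1 to HS_L_3, the groups overlapped, and the difference was 1.30 percentage points. The share of recovered reads, which is not divided by length, was 53.1%, 59.6% and 62.1% in LS_L_1 to LS_L_3 and 59.5%, 64.5% and 62.9% in HS_L_1 to HS_L_3, and these groups overlapped as well. The 5 highest members held 22.1%, 23.7% and 25.3% in LS_L_1 to LS_L_3 and 22.1%, 18.4% and 19.9% in HS_L_1 to HS_L_3 of the summed RPKM. HS_L_2 was the lowest of the 6 here although all members together held the most in it.

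**Figure D2:**
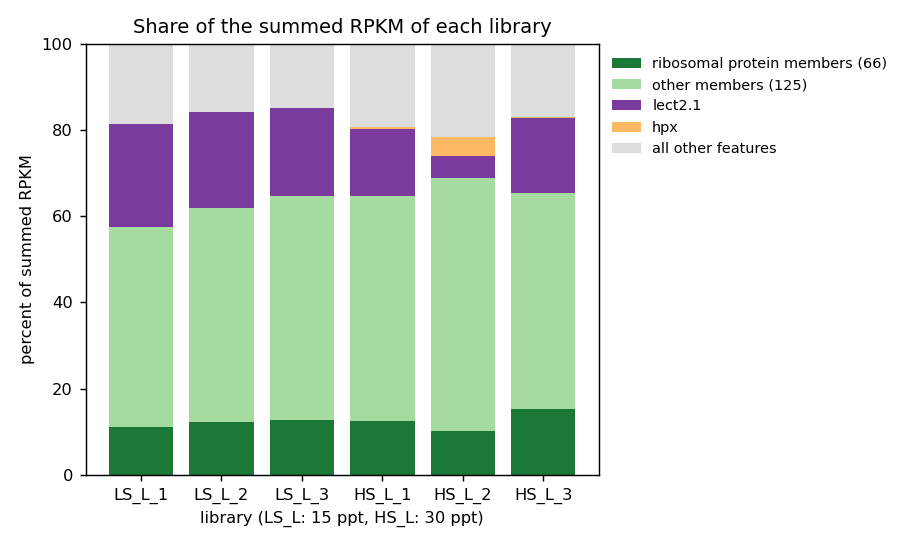
Percentage of the summed RPKM (y axis) in each of the 6 libraries (x axis), as stacked parts: ribosomal protein members, other members, lect2.1, hpx and all remaining features. Members fill 57.5% to 68.9% of a library, and the lect2.1 part is thinnest in HS_L_2 (5.23%).

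To ask whether salinity changed the abundant transcripts, LS_L was compared with HS_L by limma on log2(scaled RPKM + 1) over the 9343 tested features, with a call at an adjusted p under 0.05 (Benjamini-Hochberg over all features tested) and a log2 fold change beyond 1. Of the 191 members, 0 were called, against 4 of all tested features (0.0428%), all of which were higher in LS_L. The study's own test on read counts, at the same thresholds, called more genes and in both directions, among them the member uox. The lowest adjusted p of a member was 0.31. At an unadjusted p under 0.05 there were 9 members (4.71%) against 6.57% of all tested features: 2 were higher in LS_L (background 3.71%) and 7 were higher in HS_L (background 2.86%). limma-voom on the recovered reads gave the same counts of 0 and 9. The count at this unadjusted p was 4 without LS_L_2 and 14 without HS_L_1, where 4.1% and 7.57% of all tested features passed. With the replicate number as a block it was 19, against 8.49% of all tested features, and 0 members were called.

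By scaled RPKM, all 3 libraries of one group lay beyond all 3 of the other for 9 members (4.71%), against 12.7% of all tested features. For 3 members LS_L was higher (background 7.8%) and for 6 HS_L was higher (background 4.94%). In scaled RPKM, separated groups were thus not more frequent among the abundant transcripts than among the rest. Which members separated depended on the scaling. The groups of fga overlapped in scaled but not in deposited RPKM, and those of XM_008308755.1 in deposited but not in scaled RPKM. A count in deposited RPKM, for members and all tested features, is not given here. Some of the members that separated in scaled RPKM owe their place to one group. There were 13 members under 500 RPKM on average in LS_L and 7 in HS_L, and 7 of the 9 members at an unadjusted p under 0.05 came from these 20 (LOC103379545, ahsg2, uox, LOC103379262, prkn and nupr1b, low in LS_L, and LOC103395908, low in HS_L). Such members reached the level through the group where they were higher, so the direction of their difference was tied to the choice. Its size could be small, as for ppib (log2 fold change -0.05). The values of these members below are a description. Among the 171 members at or above 500 RPKM in both groups, 2 had an unadjusted p under 0.05 and 4 had groups that did not overlap. Over all tested features these shares were 6.57% and 12.7%. The comparison is not a like one, because the 171 were chosen by both group means.

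The median log2 fold change was 0.12 over the members and 0.03 over all tested features, with 117 members (61.3%) above 0, against 54.2% of all tested features. This median was negative without LS_L_3 (-0.10), HS_L_1 (-0.01) or HS_L_2 (-0.02), and it was 0.32 without LS_L_1 and 0.31 without HS_L_3. Most members differed little between the groups on average: 154 (80.6%) had a log2 fold change within 0.5 of 0, against 84.3% of all tested features, and 12 were beyond 1 in either direction. The SD within groups of log2(scaled RPKM + 1) was larger for the members, with a median of 0.47 against 0.32 over all tested features. This SD had a median of 0.31 for features between 1 and 10 RPKM, 0.34 between 10 and 100 and 0.44 between 100 and 500. It was thus larger at each higher level in scaled RPKM. The SD of deposited RPKM is not given here, and how far the scaling added to the spread of the members was not tested.

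**Figure D3:**
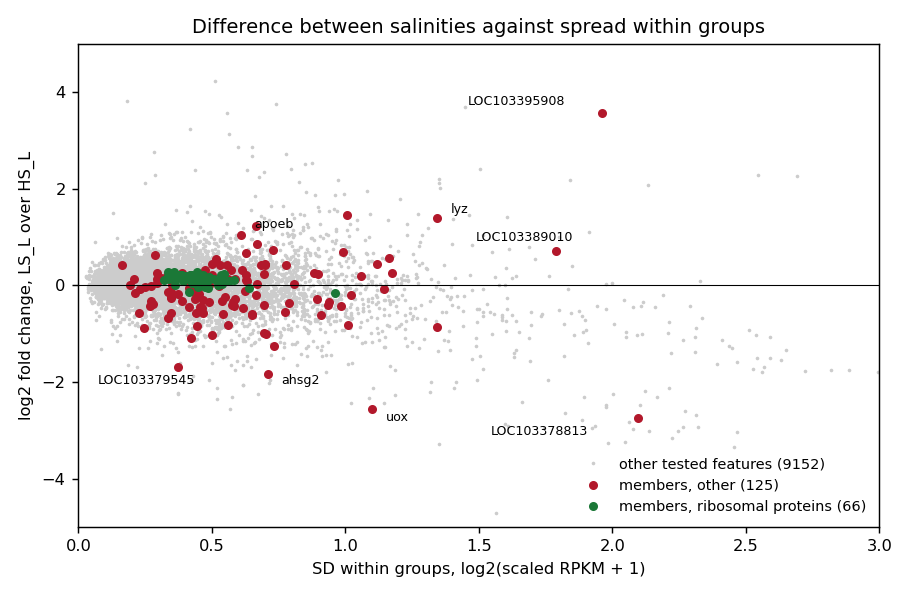
Log2 fold change, LS_L over HS_L (y axis), against the SD within groups of log2(scaled RPKM + 1) (x axis) for the 191 members and the 9152 other tested features, 4 of which lie outside the axes. Ribosomal proteins form a compact group near 0, and the members with the largest changes, LOC103395908, LOC103378813 and uox, also have SDs above 1.

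The member with the lowest p was LOC103379545 (chromosome 6, 1944177 to 1948775), described as cytochrome P450 2F2-like, of a family of enzymes that oxidize foreign and endogenous compounds. Its scaled RPKM was 173, 269.7 and 336 in LS_L_1 to LS_L_3 and 738, 757 and 956 in HS_L_1 to HS_L_3. Every LS_L library lay under every HS_L library. The log2 fold change was -1.69 ± 0.32 (SE), with unadjusted p = 0.0013, adjusted p = 0.31 by limma, so that it did not pass over all features. The adjusted p by limma was 0.079 with RPKM as deposited, 0.091 without the 20 features with most reads and 0.98 without LS_L_2. LOC103379545 reached 500 RPKM only through its highest library, which was of HS_L.

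The uricase-like gene uox (chromosome 2, 959257 to 963761), of the enzyme that oxidizes urate in purine breakdown, was at 44.2, 226 and 287 in LS_L_1 to LS_L_3 and 556, 898 and 1190.5 in HS_L_1 to HS_L_3 scaled RPKM. The LS_L libraries were all lower, and LS_L_1 lay 5.12-fold under the next lowest library. The log2 fold change was -2.55 ± 0.72 (SE), with unadjusted p = 0.0098, adjusted p = 0.59 by limma. In the study's own test on read counts, uox was called as lower in LS_L. It too reached the level only through 1 library, HS_L_3.

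The alpha-2-HS-glycoprotein-like gene ahsg2 (chromosome 20, 464990 to 467079) encodes a member of the fetuin family of plasma glycoproteins. Its scaled RPKM was 334, 491 and 494 in LS_L_1 to LS_L_3 and 891, 3221 and 1289 in HS_L_1 to HS_L_3. The highest LS_L library was under the lowest HS_L library, and HS_L_2 was 2.5-fold above the next. Its mean in LS_L was under 500 RPKM, so that it was a member only through HS_L, the group where it was higher. The log2 fold change was -1.84 ± 0.50 (SE), with unadjusted p = 0.0084, adjusted p = 0.57 by limma.

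In the other direction, apoeb (chromosome 13, 21821454 to 21823297) encodes apolipoprotein E, a ligand by which lipoprotein remnants are taken up. Its scaled RPKM was 1671, 1949.6 and 2311 in LS_L_1 to LS_L_3 and 493, 1192 and 1453 in HS_L_1 to HS_L_3. The LS_L libraries were all above the HS_L libraries, among which HS_L_1 was lowest. The log2 fold change was 1.05 ± 0.45 (SE), with unadjusted p = 0.054, adjusted p = 0.77 by limma. The cystatin gene cst3, which encodes an inhibitor of cysteine proteases, was at 1274, 1076 and 1337 in LS_L_1 to LS_L_3 and 990.3, 803 and 966 in HS_L_1 to HS_L_3 scaled RPKM. It varied least within groups of all 191 members (SD 0.16 on the log2 scale). Its groups did not overlap at a log2 fold change of 0.42 ± 0.26 (SE) (unadjusted p = 0.15, adjusted p = 0.86 by limma).

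The most abundant member, LOC112487977, also had groups that did not overlap, with scaled RPKM of 57518, 61372 and 83382 in LS_L_1 to LS_L_3 and 48375, 34351 and 48444 in HS_L_1 to HS_L_3. All LS_L libraries were above all HS_L libraries, and the log2 fold change was 0.62 ± 0.35 (SE) (unadjusted p = 0.12, adjusted p = 0.83 by limma). The remaining members without overlap were lower in LS_L: LOC103379262 at a log2 fold change of -0.88, XM_008308755.1 at -0.57 and the feature at the locus that RefSeq names prkn at -1.09. That last feature overlaps 4 others, and what the shared bases did to its count was not tested. Further members with an unadjusted p under 0.05, which were chosen after their values were seen where they are in no other rule, were LOC112487281 (1.22), LOC103394283 (-1.26), nupr1b, a stress-inducible nuclear protein gene (-1.02), and LOC103395908 (3.58), all with overlapping groups.

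**Figure D4:**
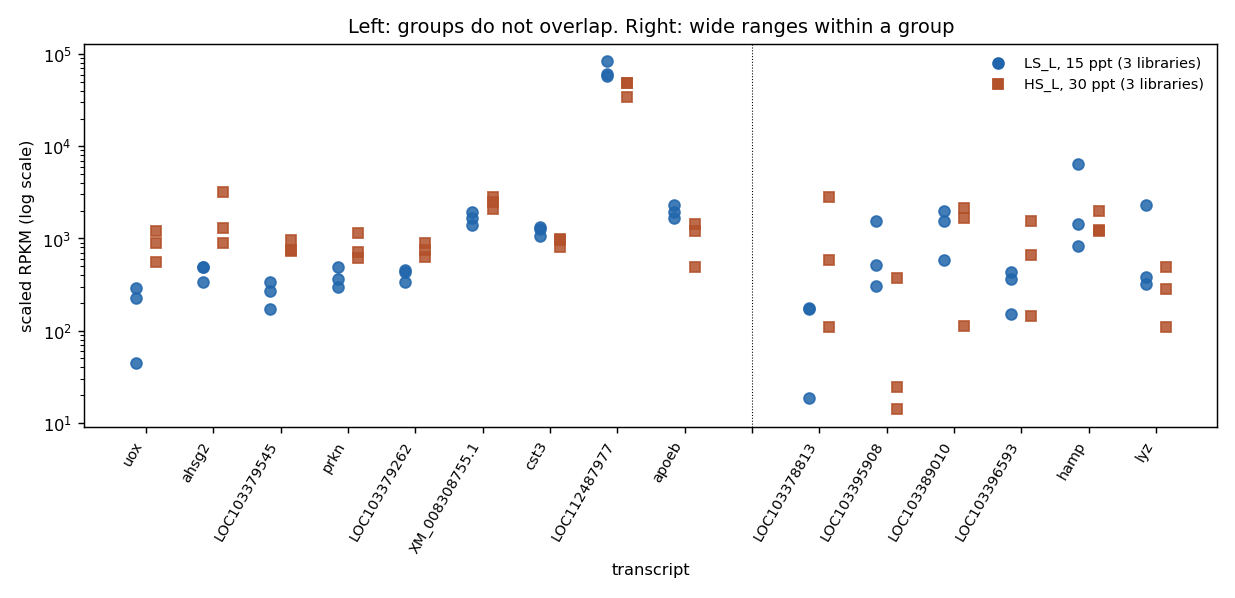
Scaled RPKM (log axis) of single libraries for 9 members whose groups do not overlap (left) and 6 members with wide ranges within a group (right), LS_L as circles and HS_L as squares. uox, ahsg2 and LOC103379545 are lower in all 3 LS_L libraries and apoeb is higher, while lyz and hamp on the right stand highest in 1 LS_L library (2305 and 6355).

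The apolipoprotein list held 4 tested genes, of which apoa1b and apoeb were members and 0 were called. The scaled RPKM of apoa1b was 23288, 46794 and 56074 in LS_L_1 to LS_L_3 and 32238, 58258 and 58262 in HS_L_1 to HS_L_3. LS_L_1 was the lowest library, the groups overlapped, and the log2 fold change was -0.28 ± 0.47 (SE), or 0.10 without LS_L_1.

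Of 13 clotting genes tested, 7 were members (fga, fgb, fgg, kng1, plg, proca and serpinc1) and 0 were called. By scaled RPKM, 0 of the 13 had groups that did not overlap, against 12.7% of all tested features. The median log2 fold change of the members was -0.24, and the members ran from -0.57 to -0.00. The median was -0.029 without LS_L_1, -0.12 without HS_L_2, -0.45 without LS_L_3 and -0.53 without HS_L_1. The summed scaled RPKM was 17882, 23691 and 28125 in LS_L_1 to LS_L_3 and 20212, 38437 and 33966 in HS_L_1 to HS_L_3. HS_L_2 and HS_L_3 were the highest libraries, but HS_L_1 was under 2 of the 3 LS_L libraries. The sum of deposited RPKM was 22457, 23182 and 22672 in LS_L_1 to LS_L_3. In HS_L_1 to HS_L_3 it was 24653, 33972 and 31808, without overlap. Whether the sums overlapped thus depended on the scaling. Within a library, the highest of the fibrinogen chains, which assemble in equal number, was at 1.21 to 1.44 times the lowest in deposited RPKM. The ratio of fgg to fga lay between 1.01 and 1.44 in the 6 libraries, and the deposited RPKM of fga alone ran from 4495 to 7424. The ratio of fgb to fga was 0.729 in HS_L_1 and between 1.05 and 1.33 in the other 5. serpinc1, the gene of antithrombin, was among the least variable members, at 845, 860.4 and 1009.7 in LS_L_1 to LS_L_3 and 830.4, 816 and 1088 in HS_L_1 to HS_L_3 scaled RPKM.

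Of 10 complement genes tested, 7 were members and 0 were called. They were c9 and the genes of the C8 chains (c8a, c8b and c8g), whose products build the membrane attack complex, the regulators cfi and cfhl4, and cfd, the protease of the alternative pathway. Their median log2 fold change was -0.24. It was 0.046 without LS_L_1, -0.039 without HS_L_2 and -0.51 without LS_L_3. c9 was at 1072, 3548 and 4754 in LS_L_1 to LS_L_3 and 2084, 6308 and 3304 in HS_L_1 to HS_L_3 scaled RPKM. LS_L_1 was lowest and HS_L_2 highest, and the log2 fold change of -0.42 ± 0.67 (SE) was smaller than its SE and was 0.23 without LS_L_1. The C8 genes were not equal: c8g was at 1.57 to 2.82 times the deposited RPKM of c8a in the 6 libraries. cfd went against the others within LS_L, with its highest scaled RPKM in LS_L_1 (974) and 382 and 513 in LS_L_2 and LS_L_3.

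Among the protease inhibitors and plasma carriers, 7 genes were tested and 5 were members: hpxb, ambp, ahsg2, itih2 and rbp4, the last of which encodes the carrier of vitamin A. All 5 had a negative log2 fold change with all libraries, with a median of -0.36 and a range from -1.84 to -0.31, and 0 were called. The -1.84 was that of ahsg2, a member only through HS_L, so that its sign was tied to the choice of members. The others ran from -0.58 to -0.31. The median of all 5 was -0.12 without LS_L_1, -0.18 without HS_L_2, -0.72 without LS_L_3 and -0.68 without HS_L_1. The summed scaled RPKM of the 5 was 15002, 25207 and 32324 in LS_L_1 to LS_L_3 and 24509.7, 43228 and 31014 in HS_L_1 to HS_L_3. The groups overlapped, with LS_L_1 lowest and HS_L_2 highest. For rbp4 these libraries were at 769 and 2774 scaled RPKM. The sum of deposited RPKM over the 5 members was 18840, 24666 and 26056 in LS_L_1 to LS_L_3. In HS_L_1 to HS_L_3 it was 29894, 38206 and 29043, without overlap. Whether the groups overlapped thus depended on the scaling.

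The iron list had 5 tested genes, and tfa, hamp and fthl27 were members. tfa was at 7914, 12796 and 17071 in LS_L_1 to LS_L_3 and 10769.9, 30031 and 12252 in HS_L_1 to HS_L_3 scaled RPKM. HS_L_2 was the highest by far and the other 5 libraries overlapped, with a log2 fold change of -0.40 ± 0.52 (SE), or 0.059 without HS_L_2. fthl27, a gene of the iron-storing ferritin family, was at 762, 824 and 1007 in LS_L_1 to LS_L_3 and 982, 1602 and 1675 in HS_L_1 to HS_L_3. HS_L_2 and HS_L_3 were highest, the groups overlapped at HS_L_1, and the log2 fold change was -0.69 ± 0.32 (SE) (unadjusted p = 0.069, adjusted p = 0.78 by limma).

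The gene hamp encodes hepcidin, the liver peptide that limits iron release and that in fish also acts against bacteria. It was at 6355, 818 and 1426 in LS_L_1 to LS_L_3 and 1983, 1205 and 1236 in HS_L_1 to HS_L_3 scaled RPKM. LS_L_1 was above all other libraries, and the log2 fold change was 0.44 with all libraries and -0.40 without LS_L_1. lyz, the gene of the antibacterial enzyme lysozyme, had the same outlying library, at 2305, 323 and 385 in LS_L_1 to LS_L_3 and 487, 111 and 285 in HS_L_1 to HS_L_3. It reached 500 RPKM only through LS_L_1, as did cd74a, the invariant chain of MHC class II, at 1296, 381 and 493 in LS_L_1 to LS_L_3 and 613, 291 and 557 in HS_L_1 to HS_L_3. The highest sum of the immune cell markers, in LS_L_1 (3646 scaled RPKM), is no separate observation, because lyz and cd74a made up 3601 of it. The part of other cell types in these values was not tested.

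The fatty acid binding protein genes fabp10a and fabp4a were members of a list of 13 tested genes of fatty acid binding and lipid metabolism. fabp10a, the liver form, was at 5182, 2122 and 3063 in LS_L_1 to LS_L_3 and 2082, 2387 and 10454 in HS_L_1 to HS_L_3 scaled RPKM. HS_L_3 was the highest and LS_L_1 the next, so that neither salinity stood apart. fabp4a was at 424, 610.2 and 787 in LS_L_1 to LS_L_3 and 386, 273 and 608 in HS_L_1 to HS_L_3, with HS_L_2 lowest. No gene of this list was called.

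Of 26 genes of amino acid and nitrogen metabolism tested, 4 were members and 0 were called. Besides uox these were tat and pah, which start the breakdown of tyrosine and phenylalanine, and glud1b, a glutamate dehydrogenase. glud1b was at 344, 696 and 946 in LS_L_1 to LS_L_3 and 386, 163 and 851 in HS_L_1 to HS_L_3 scaled RPKM. HS_L_2 was lowest and the groups overlapped. tat and pah had log2 fold changes of -0.14 ± 0.31 (SE) and 0.13 ± 0.34 (SE). The median of the list, -0.01, changed sign (0.06) when the 20 features with most reads were removed.

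Of the glycolysis and gluconeogenesis genes, the member gapdh, often taken as a reference gene, was at 1093, 3525 and 4213 in LS_L_1 to LS_L_3 and 1133, 1456 and 5896 in HS_L_1 to HS_L_3 scaled RPKM. It was low in LS_L_1, HS_L_1 and HS_L_2 and high in the other 3 libraries, a 5.4-fold range that cut across salinity. The log2 fold change was 0.25 ± 0.77 (SE), smaller than its SE. With 1 library left out it ran from -0.20 to 0.99, negative without LS_L_3, HS_L_1 or HS_L_2.

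Detoxification and antioxidant genes gave 3 members by symbol out of 41 tested: cyp24a1, which inactivates vitamin D, sod1, a superoxide dismutase, and selenop2, a secreted selenoprotein. Their log2 fold changes were -0.25 ± 0.32 (SE), -0.48 ± 0.45 (SE) and -0.17 ± 0.37 (SE), and 0 of the list were called. The P450 gene LOC103379545, given above, belongs here by its description.

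The ribosomal proteins were the largest group. Of 70 tested, 66 were members, with mean RPKM from 535 to 4066 and a median of 1682. Those outside the members included rpl22l1 (352 RPKM on average), rpl5a (52.9) and rpl6 (1363), the last left out because it lies on Z. Of the highest, rplp1, a protein of the acidic stalk of the large subunit, was at 3345, 4089 and 5511 in LS_L_1 to LS_L_3 and 3924, 2420.2 and 5151 in HS_L_1 to HS_L_3 scaled RPKM. rps12 was at 3365, 4031 and 5155 in LS_L_1 to LS_L_3 and 3365, 2759 and 4941 in HS_L_1 to HS_L_3, rps2 at 2345, 4129.8 and 4413 in LS_L_1 to LS_L_3 and 2874, 2343 and 5279.6 in HS_L_1 to HS_L_3 and rplp2 at 2865, 3474 and 4492 in LS_L_1 to LS_L_3 and 3064, 2349.8 and 4541 in HS_L_1 to HS_L_3. In each of these 4 genes LS_L_3 and HS_L_3 were the highest libraries.

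The ribosomal protein genes moved together between libraries. Their summed scaled RPKM was 87742, 122238 and 157610 in LS_L_1 to LS_L_3 and 97434, 86859.8 and 148898 in HS_L_1 to HS_L_3. LS_L_3 and HS_L_3 were high and the groups overlapped. The sum of deposited RPKM was 110191, 119612 and 127049 in LS_L_1 to LS_L_3 and 118838, 76770 and 139438 in HS_L_1 to HS_L_3. In scaled RPKM, the median SD of the 66 genes within groups was 0.42 on the log2 scale. It was 0.10 once the mean of the list in each library was taken out. That step also takes out any shift that the scaling put on a whole library. By scaled RPKM, 50 of the 66 were highest in LS_L_3 and 16 in HS_L_3, while 34 were lowest in HS_L_2 and 31 in LS_L_1. In RPKM as deposited, 48 were highest in HS_L_3 and 12 in LS_L_3, so that the highest library depended on the scaling, whereas 61 were lowest in HS_L_2. By scaled RPKM, 0 of the 66 had an unadjusted p under 0.05 or groups that did not overlap, against 6.57% and 12.7% of all tested features. Because these genes moved together, they are not 66 separate observations. Their log2 fold changes ran from -0.16 (rpl4) to 0.29 (rps27.1), with 59 above 0 and a median of 0.15, which stayed positive under the scalings tried (0.15 to 0.22) and was -0.05 at its lowest with 1 library left out.

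Translation factors resembled them. Of 42 tested, 6 were members (tpt1, rack1, eef1b2, eef1g, btf3 and eif5a), 0 were called and the median log2 fold change was 0.12. This median was -0.086 without LS_L_3, -0.018 without HS_L_1 and -0.022 without HS_L_2, and 0.41 without LS_L_1 and 0.40 without HS_L_3. Their summed scaled RPKM was 5319, 8492 and 10936 in LS_L_1 to LS_L_3 and 6527, 6745 and 10372 in HS_L_1 to HS_L_3, again highest in LS_L_3 and HS_L_3. Their median SD within groups was 0.50, and it was 0.16 after the library mean of the list was taken out. The same step left 0.23 of 0.35 in the clotting list, 0.29 of 0.55 in the complement list and 0.21 of 0.54 among the inhibitors and carriers.

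**Figure D5:**
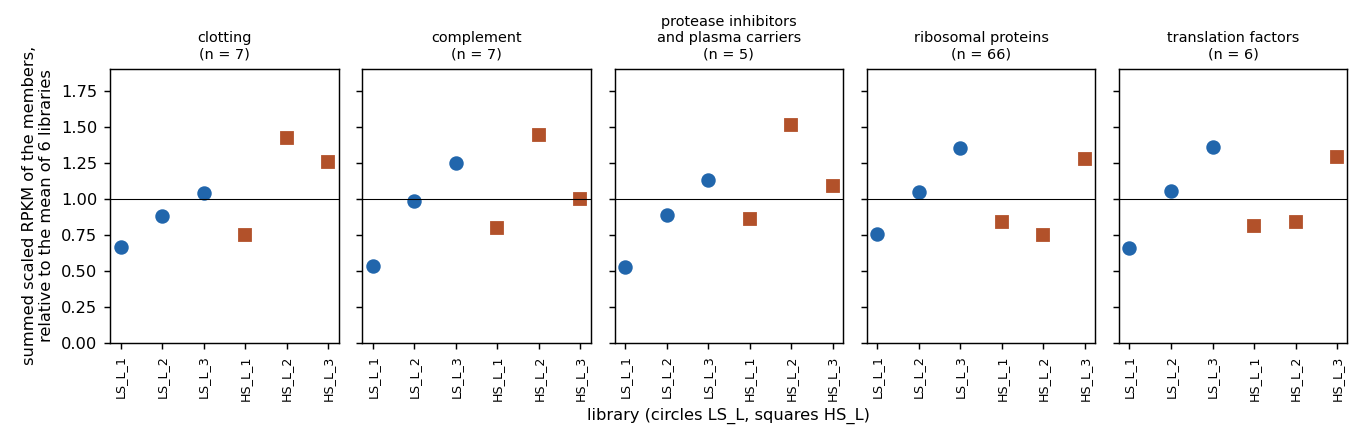
Summed scaled RPKM of the members of 5 role lists, divided by the mean over 6 libraries (y axis), in each library (x axis), LS_L as circles and HS_L as squares. The 3 plasma protein lists are highest in HS_L_2 (1.42, 1.44 and 1.51 of their mean), and the ribosomal proteins and translation factors are among the lowest there (0.744 and 0.836).

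The other housekeeping lists held few members. Of 22 chaperones tested, hsp90ab1, a cytosolic HSP90, and ppib, a folding enzyme of the endoplasmic reticulum, were members, with log2 fold changes of 0.42 ± 0.49 (SE) and -0.05 ± 0.34 (SE). Of 44 secretory pathway genes, p4hb, a protein disulfide isomerase, was the 1 member. It was at 625, 658 and 865 in LS_L_1 to LS_L_3 and 880, 673 and 643 in HS_L_1 to HS_L_3 scaled RPKM and, by the largest range within a group, was among the 5 least variable members, with cst3, serpinc1, LOC103393426 and LOC103389275.

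Single libraries set much of the variation among members. By scaled RPKM, 95 members were highest in LS_L_3, 40 in HS_L_2, 39 in HS_L_3, 11 in LS_L_1, 6 in HS_L_1 and 0 in LS_L_2. The lowest library was LS_L_1 for 95 members and HS_L_2 for 59. Thus LS_L_1 was lowest for 49.7% of the members, against 21.7% of all tested features, and HS_L_2 for 30.9% against 27.4%. In RPKM as deposited, 81 were highest in HS_L_3 and 104 lowest in HS_L_2, so that these counts depended on the scaling. The size factors of the libraries ran from 0.868 in LS_L_3 to 1.20 in LS_L_1.

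In scaled RPKM, the highest library was 2.21 times the lowest for the median member, under 2 times for 69 members and over 10 times for 6. The largest range within a group was that of LOC103378813, at 18.7, 172 and 176 in LS_L_1 to LS_L_3 and 585, 2849.6 and 110 in HS_L_1 to HS_L_3 scaled RPKM. HS_L_2 and HS_L_1 were the highest, as in the exocrine pancreas markers, whose sums in the same libraries are given above. The part of pancreatic tissue in this value was not tested. LOC103395908 was at 1543, 302 and 516 in LS_L_1 to LS_L_3 and 377, 14 and 24.2 in HS_L_1 to HS_L_3, with HS_L_2 and HS_L_3 far under the other 4. LOC103389010 was at 581, 1553 and 1999 in LS_L_1 to LS_L_3 and 2125, 1683 and 112 in HS_L_1 to HS_L_3, low in HS_L_3 alone, and its log2 fold change of 0.72 was -0.63 without that library. LOC103396593 was at 153, 364 and 431 in LS_L_1 to LS_L_3 and 143, 1530.5 and 654 in HS_L_1 to HS_L_3, and its log2 fold change was -0.86 with all libraries and 0.37 without LS_L_1 and HS_L_2, a setting added after the values were seen.

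The choice of 500 RPKM decided the lower end of the list. Just inside were ppib (508), fabp4a (508) and LOC103396593 (506). Just outside were ponzr1 (494), prss1 (469), the gene of the pancreatic protease trypsin, and LOC103383757 (461). In deposited RPKM prss1 was at 2051 in HS_L_2 and 620 in HS_L_1 and between 11.6 and 52.6 in the other 4. There were 20 members under 500 on average without their highest library, among them lyz, cd74a, uox, LOC103379545, glud1b, rpl4 and nupr1b. At 500 RPKM in every library 143 members were left, a median of 500 RPKM gave 180, and a mean scaled RPKM of 500 gave 189.

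The members were short: their median feature length was 862 bases, against 1859 over all tested features. RPKM divides reads by length, so the list favours short transcripts more than a list by reads would. Chromosomes 9 and 14 carried the most members (17 each), which is 3.79% and 3.35% of their tested features, and chromosome 18 had the highest share (16 members, 4.10%), against 2.04% over all tested features. A gap of at most 50000 bases joined 25 of the 188 placed members into 11 groups of neighbours, 9 of them pairs. fga and fgb were one pair on chromosome 1, and c8b and c8a another on chromosome 20.

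The largest group of neighbours lay on chromosome 13, where XM_008324269.1, XM_008324267.1, apoeb and LOC103389010 follow each other on the minus strand between 21804455 and 21828927. Their mean RPKM was 2880.3, 10308, 1481 and 1341, and their log2 fold changes were -0.39, 0.02, 1.05 and 0.72. The low value of LOC103389010 in HS_L_3 (112 scaled RPKM) was not shared by apoeb next to it (1453). On chromosome 9, LOC103383958, the fourth member by level, lay between LOC103383919 and LOC103383921. These last 2 were highest in HS_L_2 (3918 and 4992 scaled RPKM), whereas LOC103383958 was highest in LS_L_3 (46418). On chromosome 8, hbae5, a hemoglobin alpha gene, and LOC103382312 lay side by side with log2 fold changes of 0.42 and 0.42. Of all members, 13 overlapped another transcript, 3 of them on the same strand, and 32 more overlapped only tRNA entries, each of which is listed as 1 span along a chromosome.

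A second set of values came from the same reads and is no independent support. The event files give an FPKM for assembled transcripts, and 70 members had one in all 6 libraries. In 65 of these the difference LS_L minus HS_L in log2(FPKM + 1) had the sign of that in log2(RPKM + 1), with a median absolute gap of 0.04 and a largest of 0.69. The difference in FPKM was -1.82 for ahsg2, 1.01 for apoeb and 0.49 for hamp, where FPKM in LS_L_1 was 8552 against 895 to 2541 in the other libraries. The sign differed for LOC103390021, XM_008338526.1, cyp24a1, proca and rpl4.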

How the data were processed

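Paired-end reads of 6 liver libraries were aligned by the authors with TopHat. Reads that mapped to more than 1 place were discarded, the others were counted per feature with HTSeq (union mode), and the authors deposited RPKM per library. They also deposited a signal per group, the mean of size-factor-normalized reads, with feature lengths, and event files with the FPKM of assembled transcripts. The authors gave the reference genome by a project accession, without a build name, and sequence names and positions matched the RefSeq table of Cse_v1.0. Whether the counting used strand is not given in the sources used here.

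From RPKM and feature length, whole reads were obtained (99.5% to 99.8% of the values lay within 0.05 of a whole read). Median-of-ratios size factors from them gave the deposited group signal, the authors' mean, within 0.1% for 99.98% of the features above 0. limma 3.58.1 (R 4.3.3; lmFit, eBayes with trend and robust) was run on log2(scaled RPKM + 1) where the mean RPKM over libraries was 1 or more. The deposited per-library values were RPKM, and the main test was run on their log scale. Recovered reads were tested only by limma-voom, as an alternative, and the study's test on counts was not rerun. The code was tested on simulated data. Python 3.11.15, pandas 2.3.3, numpy 2.4.6 and matplotlib 3.10.9 were used.

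The members and lists were chosen with earlier results of these data known, so no p is given over a list, and the permutation tests planned for summed levels are not printed. Symbols spelled with a suffix (hpxb, proca, cfhl4, fthl27, tfa) were added to the lists. The genes named are the 20 highest, those with the largest changes and no overlap, the widest and narrowest ranges, those around 500 RPKM, up to 4 per list, and members above 500 only through 1 library. Of 34751 features, 20016 were named by accession and 10821 by position (overlap of at least 0.5 of both lengths). Sequence features were not analysed here, and some genes are not reported here.

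Same-numbered libraries deviated together from their group means (correlations 0.173, 0.165 and 0.232, from the numbers in the labels), so a replicate block was fitted as an alternative. Pairs of unequal number ran from -0.457 (LS_L_3 with HS_L_1) to 0.221 (LS_L_3 with HS_L_2).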

Additional observations from a re-analysis of the deposited data

How the results depend on the processing

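Under the following settings 0 members were called by limma: TMM factors, RPKM as deposited, 2 other filters, a pseudocount of 0.1, the replicate block, limma-voom, removal of the 20 features with most reads (174 members left), each library left out, and LS_L_1 and HS_L_2 left out together (the last chosen after seeing the data). The number of members with an unadjusted p under 0.05, 9 at first, was 14 with RPKM as deposited and 19 with the replicate block, and from 4 to 14 with 1 library left out. Of all tested features, 6.57% passed at first, 5.02% with RPKM as deposited and 8.49% with the replicate block. The share among the 191 members was under that of all tested features at first and over it in those other settings. The median log2 fold change of the members ran from -0.10 to 0.32 with 1 library left out. The difference in the share of summed RPKM, -4.97 percentage points at first, was 1.30 with lect2.1 and hpx out of the total and 2.67 with lect2.1 alone out (added after seeing the data). With 1 library left out it ran from -6.62 to -3.04. Calls over all features went from 4 to 10 with RPKM as deposited or without the 20 features with most reads, 7 with at least 10 reads in every library, 1 without a filter, 0 with the replicate block, 33 without LS_L_1 and HS_L_2, and 0 to 17 with 1 library left out. With 1 library left out, the log2 fold change of these members crossed 0: hamp from -0.40 to 1.07, LOC103389010 from -0.63 to 1.49, apoa1b from -0.56 to 0.10, tfa from -0.67 to 0.059, XM_008324267.1 from -0.22 to 0.35, c9 from -0.85 to 0.23, gapdh from -0.20 to 0.99, selenop2 from -0.39 to 0.090, tat from -0.41 to 0.016, pah from -0.14 to 0.35, rpl4 from -0.59 to 0.48 and ppib from -0.23 to 0.20. Without LS_L_1 and HS_L_2 the sign turned for hamp (-0.53), LOC103396593 (0.37), apoa1b (0.24), tfa (0.37), c9 (0.65), selenop2 (0.28), rpl4 (0.62) and ppib (0.42). ppib was at 0.025 without the 20 features with most reads, and in FPKM cyp24a1 was at 0.11 and rpl4 at 0.018. The cause was not tested. Counting error was small at these levels, and the spread between 3 libraries per group set the precision. Each library was a pool from its own tank, so tank and sample preparation could not be told apart.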
